A study of Mus musculus with 4 samples.

Results

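Proteins that enter the secretory pathway pass through a set of machines in the endoplasmic reticulum (ER), and 49 genes of those machines are described here in ribosome footprints from mouse cells, 49 of the 20716 genes in the deposited table. They were chosen by symbol: each RefSeq coding sequence entry of the table that maps to one of the 49 symbols was taken, and the entries of a symbol were summed. All 49 were in the table, and 41 passed a filter of a mean normalised footprint count of at least 25 over the 4 libraries, as did 9670 of all genes. Those 41 had at least 25 in every library, so none passed through 1 group alone.

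The footprints came from C57BL/6 mouse cells at 2 stages, with and without Mettl3, the enzyme that puts N6-methyladenosine on mRNA. KO EBs were embryoid bodies of Mettl3-KO cells and WT EBs were embryoid bodies of wild-type cells, each grown as floating aggregates in a serum medium without the factors that hold cells naive. KO ESCs were Mettl3-KO embryonic stem cells and WT ESCs were wild-type ones, each kept naive without serum, in LIF with the GSK3 inhibitor CHIR99021 and the MEK inhibitor PD0325901. The labels give a span of days for the EB cultures. The day of each EB library, the deleted stretch of Mettl3 and the number of clones were not known from the sources used. Each group was 1 library, so no difference below has a replicate check and no test between 2 libraries was run. The genotype and any difference between 2 lines or 2 libraries cannot be told apart.

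Most secreted and membrane proteins are recognised while still on the ribosome, by the signal recognition particle (SRP), and handed through its receptor to the Sec61 channel. In and beside that channel the signal peptide is cut off by signal peptidase and N-linked sugars are attached by the oligosaccharyltransferase. Chaperones and disulfide isomerases then fold the chain in the lumen, the COPII coat buds vesicles that carry it to the Golgi, and a load of unfolded chains turns on chaperone genes through the unfolded protein response.

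A footprint count follows both the amount of a gene's mRNA and how many ribosomes sit on it, and in a bulk library fewer cells of a type and less RNA per cell cannot be told apart. Reads on genes numbered 4075850 in KO EBs, 4234361 in WT EBs, 11455539 in KO ESCs and 8570204 in WT ESCs, and 1 read was worth between 0.533 and 1.56 normalised counts. Values per library are normalised counts unless another unit is named. Mettl3 itself had 327 in KO EBs, 429 in WT EBs, 298 in KO ESCs and 563 in WT ESCs. It was 1.31-fold lower (1.09–1.57) in KO than WT EBs and 1.89-fold lower (1.69–2.12) in KO than WT ESCs; without the deleted stretch these counts do not check the knockout. The bounds in parentheses here and below are 95% exact intervals of the ratio of reads and cover counting error only. Of 18 endoderm markers the 17 that passed the filter all lay 2-fold or more lower in KO than WT EBs, as did 12.2% of all genes tested. Some of the 17, such as Ttr, passed only through their count in WT EBs. The summed counts of the 18 were 3470.5 in KO EBs, 63470.0 in WT EBs, 1076 in KO ESCs and 681 in WT ESCs. Dab2, with 4 entries, was at 0 throughout. Of 17 matrix markers 13 passed, 11 of them 2-fold or more higher in KO than WT EBs and 11 in KO than WT ESCs. Of all genes tested, 15.2% were so in EBs and 10.6% in ESCs. Some of the ESC folds rest on few reads, such as Col15a1 with 3 in KO ESCs and 0 in WT ESCs. Sparc, the highest count of the list, went the other way. It had 5238 in KO EBs, 8686 in WT EBs, 4081 in KO ESCs and 5286 in WT ESCs. The sums over the 17 were 21176 in KO EBs, 11630.0 in WT EBs, 7837 in KO ESCs and 6164 in WT ESCs. Fn1, Postn and Dcn, with 7, 3 and 2 entries, were at 0 throughout. Summed counts of 13 pluripotency markers were 31110.0 in KO EBs, 17925 in WT EBs, 24364 in KO ESCs and 34430.0 in WT ESCs. Tbx3, with 2 entries, was at 0 throughout. Sums of the blood, neural and muscle markers reached at most 17.9, 1966 and 148 in any library. Among them Ptprc, Pax6, Map2, Dcx, Myh6, Tnnt2 and Tnni1, with between 2 and 9 entries each, were also at 0. A read shared by the entries of 1 gene is ambiguous in the authors' counting. The 0 of these markers, and of Dab2, Fn1, Postn, Dcn and Tbx3, may therefore be no level. The low blood, neural and muscle sums do not show that such cells were absent. The part of the cells that any of these marker lists stand for in the results below was not tested.

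Of the 49 genes 6 were listed at 0 in every library, namely Hspa5 (BiP), the main Hsp70 of the ER lumen; its co-chaperone Dnajb11; the lectin chaperone Canx; the oligosaccharyltransferase subunit Dad1; the translocon-associated subunit Ssr4; and the coat subunit Sec23b. Each has between 2 and 5 entries in the table with the same or overlapping coding sequences, and none of its 28-base windows belonged to 1 entry alone; a read on them is ambiguous in the authors' counting. Among all genes in the table, 21.9% of the 16833 with 1 entry had no read, against 68.3% of the 3883 with more entries. The 0 of these 6 genes is therefore no level, and no fold is given for them. Of the other members that did not pass, Sec61g, a small subunit of the channel, had 93.2% of its windows copied elsewhere in the genome, and its reads numbered 9 in KO EBs, 14 in WT EBs, 25 in KO ESCs and 37 in WT ESCs. Srp9, an SRP subunit, had 100% of its windows copied, and its reads numbered 3 in KO EBs, 4 in WT EBs, 12 in KO ESCs and 4 in WT ESCs. Among those that passed, Sec61b had 87.1% of its windows copied, Spcs2 40.1%, Spcs1 33.8%, Srp19 22.5% and Ppib 13.0%, and the other 36 had under 10%; a read in a copied window has no place of its own.

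**Figure D1:**
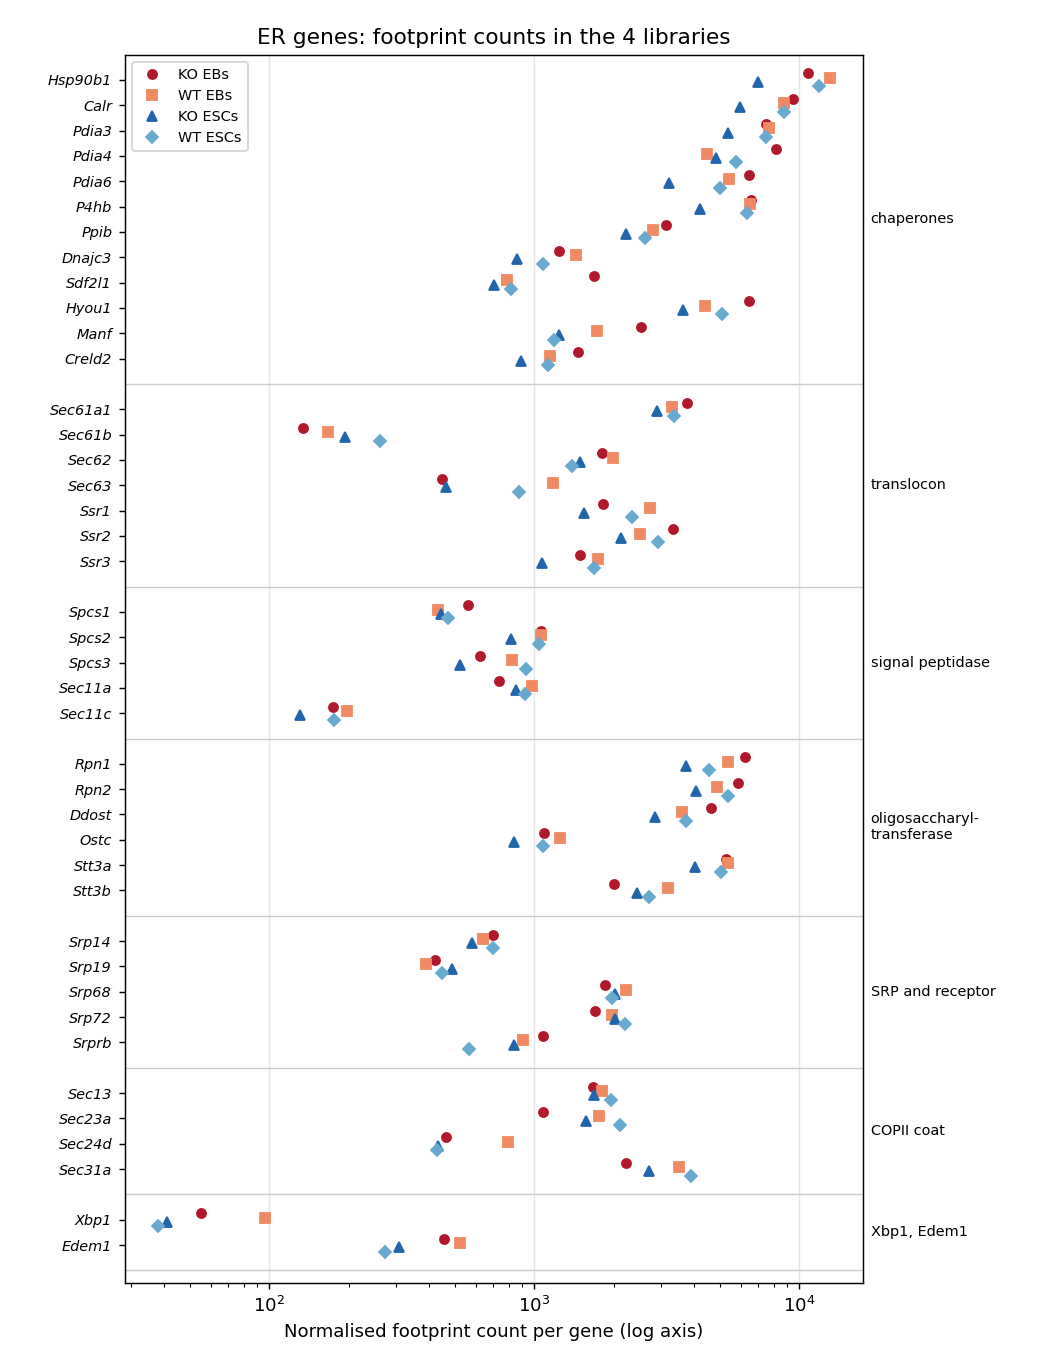
Normalised footprint count (log axis) of each of the 41 genes that passed the filter, 1 point per library, grouped by role; the small vertical shifts only separate the points. KO ESCs are the lowest of the 4 libraries for most chaperones, Sec63 is low in both KO libraries, and Sec23a and Sec31a are lowest in KO EBs.

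After the deposited scaling, the summed ER genes were 1.33-fold lower (1.32–1.34) in KO than WT ESCs. In KO EBs they were 1.04-fold higher (1.03–1.05) than in WT EBs, and per gene reads EBs lay further apart. The roles went different ways in EBs. In ESCs the sums of the SRP group and of Xbp1 with Edem1 were not lower in KO, at 1.01-fold and 1.12-fold higher. Of gene reads, the 41 genes held 1.94% (1.93–1.95%) in KO EBs, 1.72% (1.71–1.73%) in WT EBs, 1.36% (1.36–1.37%) in KO ESCs and 1.66% (1.65–1.66%) in WT ESCs. In KO ESCs 33 of 41 had a lower count than in WT ESCs, as did 4868 of 9670 genes tested. The median log2 fold was −0.33, against −0.00 over all genes tested. None of the 41 was 2-fold apart, and over all genes tested 10.6% lay 2-fold or more up and 4.42% down. In KO EBs 23 of 41 were lower and 18 higher than in WT EBs, where 5175 of 9670 genes tested were lower and 4494 higher. The median was −0.04 against −0.07 over all genes. Past 2-fold were 1 gene on the high side and 1 on the low side, where over all genes 15.2% lay on the high side and 12.2% on the low side. The shares of members past 2-fold, 1 of 41 at most in either direction, are under that background in both comparisons. That background includes genes with low counts, which spread more, while all of the 41 but Xbp1 had a mean of at least 100. Among all genes with such a mean, 6.88% lay 2-fold or more up and 2.79% down in KO against WT ESCs. In KO against WT EBs the shares were 10.8% up and 10.7% down.

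At 1.5-fold, 7 members were lower and 0 higher in KO than WT ESCs, with 13.4% of all genes lower and 20.5% higher. In KO EBs 7 members were lower and 2 higher than in WT EBs, with 25.1% of all genes lower and 24.6% higher. Scaling each library to the same total of gene reads lifts the median of all genes by 0.13 on the log2 scale between KO ESCs and WT ESCs and by 0.12 between KO EBs and WT EBs, and the members' folds move up with it. The median of the 23 translocation and glycosylation genes in KO ESCs against WT ESCs was −0.33, and −0.20 under that scaling. Between KO EBs and WT EBs it was −0.14, and −0.02 under that scaling. The 16 chaperone and coat genes that passed had medians of −0.38 in ESCs and 0.07 in EBs, the EB value being the middle of higher chaperones and lower coat genes.

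**Figure D2:**
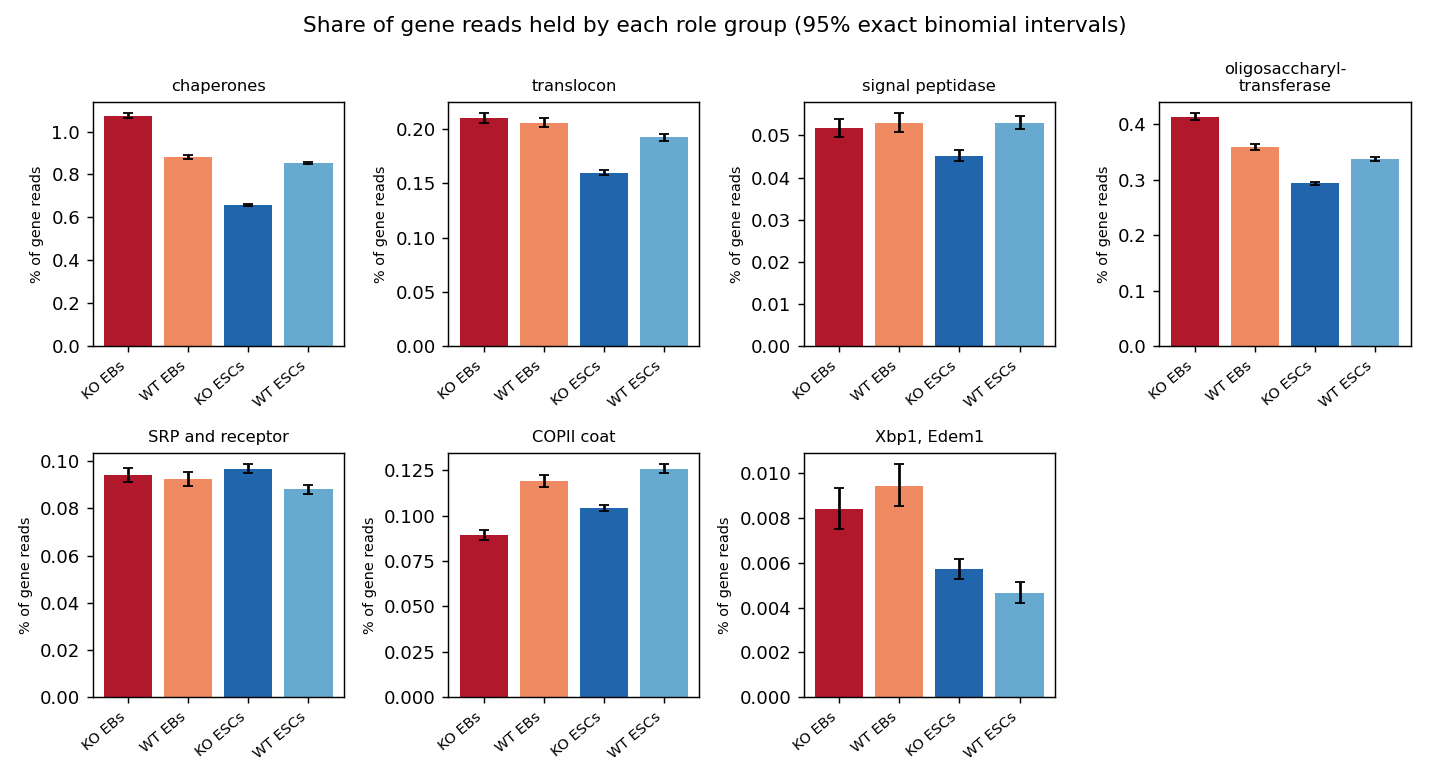
Percent of each library's gene reads held by the measured genes of each role, with 95% exact binomial intervals that cover counting error only; bars start at 0 and the scales differ between panels. Chaperones held 1.07% in KO EBs and 0.657% in KO ESCs, whereas SRP genes held between 0.0881% and 0.0968% in all 4 libraries.

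The SRP and its receptor, the first machine that a signal peptide meets, was close to even between the genotypes at both stages after the deposited scaling. Of gene reads, its 5 measured genes held 0.0943% (0.0913–0.0973%) in KO EBs, 0.0924% (0.0896–0.0954%) in WT EBs, 0.0968% (0.0951–0.0987%) in KO ESCs and 0.0881% (0.0861–0.0901%) in WT ESCs. After the deposited scaling their sum was 1.06-fold lower (1.02–1.11) in KO than WT EBs and 1.01-fold higher (0.978–1.04) in KO than WT ESCs, the last interval including 1. The shares of gene reads differ from this: in EBs they lean to KO, and in ESCs the KO interval lies above that of WT. The direction therefore depends on the scaling. Srprb, the membrane anchor of the SRP receptor, had 1073 in KO EBs, 904 in WT EBs, 835 in KO ESCs and 569 in WT ESCs. It stood lowest in WT ESCs, 1.47-fold higher (1.34–1.6) in KO than WT ESCs, and 1.19-fold higher (1.06–1.33) in KO than WT EBs. Srp14, which with Srp9 forms the domain that slows elongation, had 696 in KO EBs, 637 in WT EBs, 581 in KO ESCs and 699.7 in WT ESCs. It was 1.2-fold lower (1.1–1.32) in KO than WT ESCs. Srp68 and Srp72 bind the SRP RNA as a pair. Srp68 had 1849 in KO EBs, 2213 in WT EBs, 2007 in KO ESCs and 1969 in WT ESCs. It was 1.2-fold lower (1.11–1.29) in KO than WT EBs. Srp72 had 1694 in KO EBs, 1954 in WT EBs, 2006 in KO ESCs and 2192 in WT ESCs, and Srp19, which helps assemble the particle, had 422 in KO EBs, 391 in WT EBs, 489.7 in KO ESCs and 447 in WT ESCs. Srp72 was 1.15-fold lower (1.06–1.25) in KO than WT EBs and 1.09-fold lower (1.04–1.15) in KO than WT ESCs. Srp19 was 1.08-fold higher (0.908–1.29) in KO than WT EBs and 1.1-fold higher (0.986–1.22) in KO than WT ESCs.

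At the translocon the genes split, with Sec63 lower in both KO libraries and Sec62 near level. Sec61a1, the pore itself, had 3754 in KO EBs, 3303 in WT EBs, 2897 in KO ESCs and 3369 in WT ESCs. It was 1.14-fold higher (1.07–1.2) in KO than WT EBs and 1.16-fold lower (1.12–1.21) in KO than WT ESCs. Sec63 (GRCm38.p6 chr10:42761496-42832514), the J-domain protein that brings BiP to the channel, had 449 in KO EBs, 1177 in WT EBs, 464 in KO ESCs and 873 in WT ESCs. Both KO libraries lay below both WT libraries: Sec63 was 2.62-fold lower (2.29–3.0) in KO than WT EBs, the only member past 2-fold on the low side in that comparison, and 1.88-fold lower (1.72–2.06) in KO than WT ESCs. Sec62, its partner in the channel, had 1802 in KO EBs, 1982 in WT EBs, 1483 in KO ESCs and 1388 in WT ESCs. It was 1.1-fold lower (1.02–1.19) in KO EBs and 1.07-fold higher (1.01–1.13) in KO ESCs than in the WT library of the same stage.

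The ratio of the pair within a library removes the scaling between libraries. The footprint density, in reads per 1000 countable 28-base positions per 1000000 gene reads, of Sec62 over that of Sec63 was 7.75 (6.82–8.82) in KO EBs, 3.25 (2.97–3.57) in WT EBs, 6.18 (5.72–6.68) in KO ESCs and 3.07 (2.85–3.31) in WT ESCs. The ratios of both KO libraries lay above those of both WT libraries with intervals that did not overlap. This pair, like the Stt3a and Stt3b pair below, was chosen after its values were seen. The translocon-associated protein (TRAP) subunits differed from each other. Ssr1 had 1818 in KO EBs, 2729 in WT EBs, 1537 in KO ESCs and 2343 in WT ESCs. It was 1.5-fold lower (1.39–1.62) in KO than WT EBs and 1.52-fold lower (1.45–1.6) in KO than WT ESCs. Ssr2 had 3324 in KO EBs, 2501 in WT EBs, 2113 in KO ESCs and 2916 in WT ESCs. It was 1.33-fold higher (1.25–1.42) in KO than WT EBs and 1.38-fold lower (1.32–1.44) in KO than WT ESCs. Ssr3 had 1491 in KO EBs, 1742 in WT EBs, 1071 in KO ESCs and 1678 in WT ESCs, lower in KO at each stage by 1.17-fold in EBs and 1.57-fold in ESCs. Sec61b, the tail-anchored small subunit, had 134 in KO EBs, 167 in WT EBs, 194 in KO ESCs and 262 in WT ESCs, read from the few positions it shares with no copy.

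**Figure D3:**
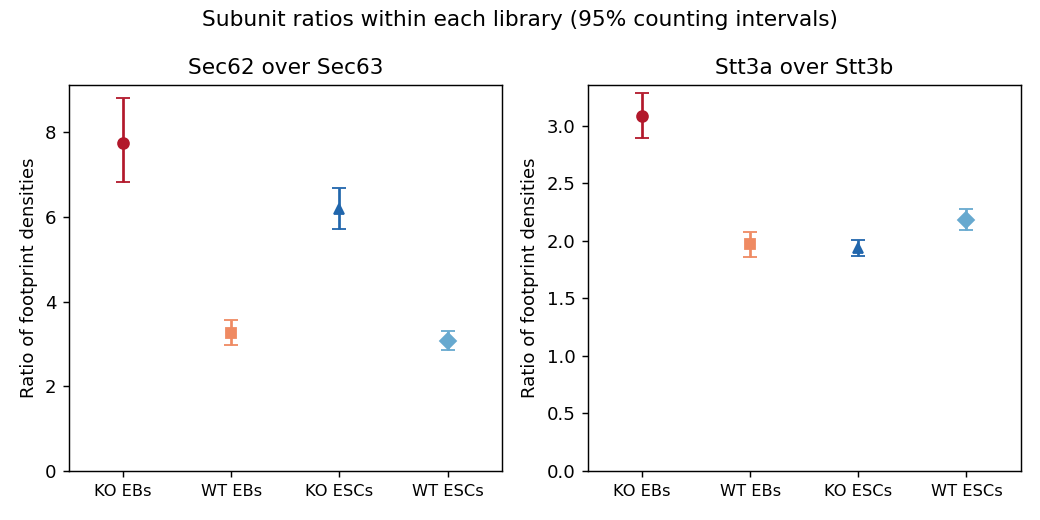
Ratio of footprint densities of 2 subunit pairs within each library, with 95% counting intervals; both axes start at 0. Sec62 over Sec63 is 7.75 in KO EBs and 6.18 in KO ESCs but 3.25 in WT EBs and 3.07 in WT ESCs, and Stt3a over Stt3b is 3.08 in KO EBs and between 1.94 and 2.18 in the other 3 libraries.

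The 5 signal peptidase genes were all lower in KO than WT ESCs, as were 4868 of 9670 genes tested. Spcs1 and Sec11a turn to 0.04 and 0.00 on the log2 scale when libraries are scaled to the same total. Of gene reads the 5 genes held 0.0517% (0.0495–0.054%) in KO EBs, 0.053% (0.0508–0.0552%) in WT EBs, 0.0452% (0.044–0.0465%) in KO ESCs and 0.053% (0.0515–0.0546%) in WT ESCs. Spcs3, an accessory subunit that the complex needs, had 621 in KO EBs, 824 in WT EBs, 522 in KO ESCs and 927 in WT ESCs. It was 1.33-fold lower (1.17–1.51) in KO than WT EBs and 1.78-fold lower (1.63–1.93) in KO than WT ESCs. Sec11a, a catalytic subunit, had 734 in KO EBs, 979 in WT EBs, 849 in KO ESCs and 924 in WT ESCs. It was 1.33-fold lower (1.18–1.5) in KO than WT EBs and 1.09-fold lower (1.01–1.17) in KO than WT ESCs. Its alternative, Sec11c, had 173 in KO EBs, 196 in WT EBs, 131 in KO ESCs and 175 in WT ESCs. Per position, Sec11a exceeded Sec11c by a ratio of 4.56 (3.72–5.64) in KO EBs, 5.36 (4.42–6.55) in WT EBs, 6.99 (6.1–8.03) in KO ESCs and 5.68 (4.92–6.58) in WT ESCs, so Sec11a had the higher density in each library. Spcs1 had 559.8 in KO EBs, 433 in WT EBs, 446 in KO ESCs and 472 in WT ESCs, the highest in KO EBs, where it was 1.29-fold higher (1.1–1.51) than in WT EBs; in KO ESCs it was 1.06-fold lower (0.953–1.18) than in WT ESCs. Spcs2 had 1058 in KO EBs, 1063 in WT EBs, 815 in KO ESCs and 1039.8 in WT ESCs, and its density, 444 in KO EBs, 411 in WT EBs, 340.3 in KO ESCs and 398 in WT ESCs, was the highest of the complex on the mean of the 4 libraries.

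All 6 measured oligosaccharyltransferase genes were lower in KO than WT ESCs, by between 1.11-fold and 1.33-fold, where 4868 of 9670 genes tested were lower. In EBs the shared subunits and Stt3b went opposite ways. Of gene reads, the 6 genes held 0.413% (0.407–0.419%) in KO EBs, 0.359% (0.353–0.365%) in WT EBs, 0.294% (0.29–0.297%) in KO ESCs and 0.338% (0.334–0.342%) in WT ESCs. Rpn1, Rpn2 and Ddost belong to the core of both forms of the enzyme. Rpn1 had 6256 in KO EBs, 5352 in WT EBs, 3722 in KO ESCs and 4542 in WT ESCs. It was 1.17-fold higher (1.12–1.22) in KO than WT EBs. Rpn2 had 5857 in KO EBs, 4894 in WT EBs, 4054 in KO ESCs and 5389 in WT ESCs. It was 1.2-fold higher (1.14–1.25) in KO than WT EBs and 1.33-fold lower (1.29–1.37) in KO than WT ESCs. Ddost had 4654 in KO EBs, 3616 in WT EBs, 2854 in KO ESCs and 3733 in WT ESCs. It was 1.29-fold higher (1.22–1.36) in KO than WT EBs and 1.31-fold lower (1.26–1.36) in KO than WT ESCs. These 3 genes were highest in KO EBs and lowest in KO ESCs.

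The catalytic subunits set the 2 forms apart: the Stt3a form works beside the channel, and the Stt3b form also reaches sites that were passed over. Stt3b had 2005 in KO EBs, 3201 in WT EBs, 2438 in KO ESCs and 2717 in WT ESCs. It was lowest in KO EBs, 1.6-fold lower (1.49–1.71) than in WT EBs, and in KO ESCs it was 1.11-fold lower (1.07–1.17) than in WT ESCs. Stt3a had 5279.6 in KO EBs, 5386 in WT EBs, 4034 in KO ESCs and 5065 in WT ESCs. It was 1.02-fold lower (0.973–1.07) in KO than WT EBs after the deposited scaling, an interval that includes 1. Per gene reads its density was 415 in KO EBs and 390 in WT EBs. The density ratio of Stt3a over Stt3b was 3.08 (2.89–3.28) in KO EBs, 1.97 (1.86–2.08) in WT EBs, 1.94 (1.87–2.01) in KO ESCs and 2.18 (2.09–2.27) in WT ESCs, and the interval of KO EBs did not overlap those of the other 3 libraries. Ostc, which ties the Stt3a form to the channel, had 1087 in KO EBs, 1252 in WT EBs, 839.6 in KO ESCs and 1079 in WT ESCs. It was 1.15-fold lower (1.04–1.27) in KO than WT EBs and 1.28-fold lower (1.19–1.38) in KO than WT ESCs. Densities of the subunits were close to each other apart from Stt3b: on the mean of the 4 libraries Rpn1, Rpn2, Ddost, Ostc and Stt3a lay between 371 and 461 and Stt3b at 166. Ddost was the highest, with densities of 602 in KO EBs, 431 in WT EBs, 368 in KO ESCs and 441 in WT ESCs.

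**Figure D4:**
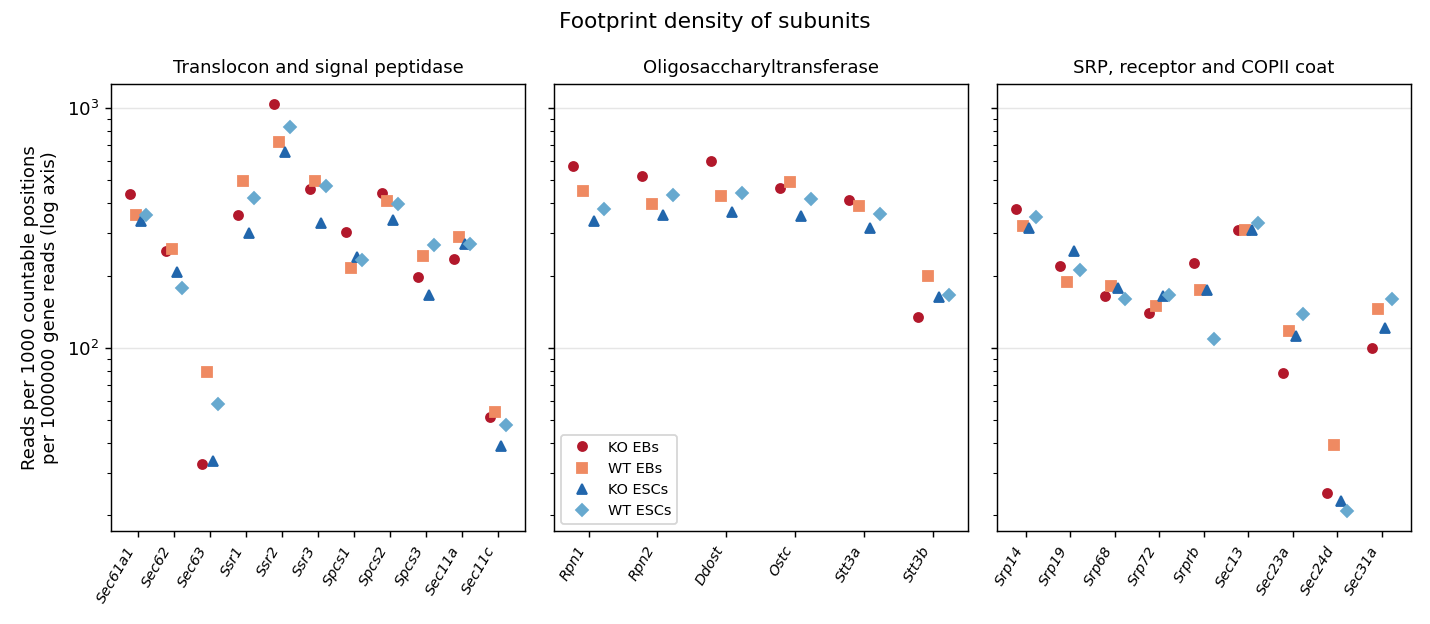
Footprint density (reads per 1000 countable positions per 1000000 gene reads, log axis) of subunits of the membrane complexes and the coat, 1 point per library; members with under 50% countable positions are left out. Oligosaccharyltransferase subunits other than Stt3b lie in a narrow band in each library, while Sec63, Sec11c and Sec24d lie well below their partners.

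The lumenal chaperones and disulfide isomerases lay on opposite sides at the 2 stages: in KO ESCs 11 of 12 measured genes were lower than in WT ESCs, and in KO EBs 9 of 12 were higher than in WT EBs, 10 with Pdia3 at 0.08 under scaling to the same total. Over all genes tested, 4868 of 9670 were lower in KO than WT ESCs and 4494 were higher in KO than WT EBs. The median log2 fold of the chaperones was −0.41 in ESCs and 0.21 in EBs. As a share of gene reads they held 1.07% (1.06–1.08%) in KO EBs, 0.881% (0.872–0.89%) in WT EBs, 0.657% (0.652–0.661%) in KO ESCs and 0.854% (0.848–0.86%) in WT ESCs. Summed, they were 1.12-fold higher (1.11–1.14) in KO than WT EBs and 1.42-fold lower (1.4–1.43) in KO than WT ESCs after the deposited scaling. Hsp90b1 (GRP94), the Hsp90 of the ER, had 10767 in KO EBs, 12995 in WT EBs, 6999.8 in KO ESCs and 11798 in WT ESCs. It was lower in KO at both stages, 1.21-fold lower (1.17–1.25) in EBs and 1.69-fold lower (1.65–1.73) in ESCs. Calr, the soluble lectin chaperone, had 9484 in KO EBs, 8722 in WT EBs, 5962 in KO ESCs and 8714 in WT ESCs. Its density, 1352 in KO EBs, 1146 in WT EBs, 846 in KO ESCs and 1133 in WT ESCs, was the highest of the members with a density on the mean of the libraries. Calr was 1.09-fold higher (1.05–1.13) in KO than WT EBs and 1.46-fold lower (1.42–1.5) in KO than WT ESCs. Beside these, the sum of pluripotency markers was 24364 in KO ESCs, 34430.0 in WT ESCs, 31110.0 in KO EBs and 17925 in WT EBs. That of matrix markers was 21176 in KO EBs and 11630.0 in WT EBs, but also higher in KO ESCs, with 7837 against 6164 in WT ESCs. The sum of endoderm markers went the other way from most chaperones in EBs, with 3470.5 in KO EBs and 63470 in WT EBs. In ESCs the sum was 1076.5 in KO and 681 in WT, but the markers were mixed. Of the 17 that passed, 11 were higher and 6 lower in KO than WT ESCs. Lrp2 alone had 629 in KO ESCs and 336 in WT ESCs, while Foxa2, Ttr, Apoa1, Rbp4 and Fgb had few reads in either. The part of these cells in the chaperone values was not tested.

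Sdf2l1, Pdia4, Manf and Hyou1 were each higher in KO EBs than in any other library. Sdf2l1 (GRCm38.p6 chr16:17130138-17132383), which works with the BiP co-chaperone Dnajb11, had 1679 in KO EBs, 786 in WT EBs, 704 in KO ESCs and 816 in WT ESCs. The KO EB library stood apart from the other 3, which lay between 704 and 816: Sdf2l1 was 2.14-fold higher (1.92–2.38) in KO than WT EBs, the only member past 2-fold on the high side in that comparison, and 1.16-fold lower (1.07–1.26) in KO than WT ESCs. Pdia4, a disulfide isomerase, had 8128 in KO EBs, 4481 in WT EBs, 4836 in KO ESCs and 5759 in WT ESCs, again highest in KO EBs, 1.81-fold higher (1.73–1.9) than in WT EBs, and 1.19-fold lower (1.15–1.23) in KO than WT ESCs. Hyou1 (GRP170), a nucleotide exchange factor for BiP, had 6429 in KO EBs, 4420.0 in WT EBs, 3649 in KO ESCs and 5092 in WT ESCs. It was 1.45-fold higher (1.39–1.53) in KO than WT EBs and 1.4-fold lower (1.35–1.44) in KO than WT ESCs. Manf, a secreted ER stress protein that binds BiP, had 2517 in KO EBs, 1724 in WT EBs, 1238 in KO ESCs and 1189 in WT ESCs. It was 1.46-fold higher (1.35–1.58) in KO than WT EBs and 1.04-fold higher (0.976–1.11) in KO than WT ESCs. Creld2, another ER stress gene, had 1461 in KO EBs, 1142 in WT EBs, 889.8 in KO ESCs and 1123 in WT ESCs. It was 1.28-fold higher (1.16–1.41) in KO than WT EBs.

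Between KO EBs and WT EBs the isomerases Pdia3 and P4hb lay within their counting error after the deposited scaling. Per gene reads their densities were higher in KO EBs, 824 against 781 in WT EBs for Pdia3 and 719.6 against 657 for P4hb. Pdia3, the partner of Calr and Canx, had 7475 in KO EBs, 7685 in WT EBs, 5362 in KO ESCs and 7467 in WT ESCs; P4hb (PDI), the classical isomerase, had 6579.7 in KO EBs, 6519 in WT EBs, 4198 in KO ESCs and 6320.1 in WT ESCs. In KO EBs Pdia3 was 1.03-fold lower (0.988–1.07) and P4hb 1.01-fold higher (0.967–1.05) than in WT EBs, both intervals including 1. In KO ESCs Pdia3 was 1.39-fold lower (1.35–1.43) and P4hb 1.51-fold lower (1.46–1.55) than in WT ESCs. Pdia6 had 6445 in KO EBs, 5416 in WT EBs, 3212 in KO ESCs and 4992 in WT ESCs. It was 1.19-fold higher (1.14–1.24) in KO than WT EBs and 1.55-fold lower (1.5–1.61) in KO than WT ESCs. Ppib, a prolyl isomerase, had 3147 in KO EBs, 2805 in WT EBs, 2226 in KO ESCs and 2604 in WT ESCs. Dnajc3 (p58IPK), a BiP co-chaperone, had 1234 in KO EBs, 1439 in WT EBs, 862 in KO ESCs and 1080.3 in WT ESCs. It was 1.17-fold lower (1.06–1.28) in KO than WT EBs, on the low side with Hsp90b1. Over the 12 genes the difference between the EB against ESC log2 fold in KO and that in WT was above 0 in 12 of 12. The same difference was above 0 in 4417 of 9670 genes tested. Its median was 0.64 in the 12 genes, against −0.08 over all genes tested. Other roles shared the direction: 5 of 6 oligosaccharyltransferase genes (median 0.41), 4 of 5 signal peptidase (0.34) and 5 of 7 translocon genes (0.13) were above 0. SRP had 1 of 5 (−0.08), the coat 1 of 4 (−0.20), and Xbp1 with Edem1 0 of 2. Among pluripotency markers 11 of 11 were above 0, with a median of 1.21. Among members the difference reached 1 in Sdf2l1 (1.31), Pdia4 (1.11) and Hyou1 (1.02), 3 of 41. Over all genes 11.4% were past 1 and 12.5% past −1. No other role had a member past 1 in either direction. The difference was not tested, having no replicate, and it uses all 4 libraries.

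**Figure D5:**
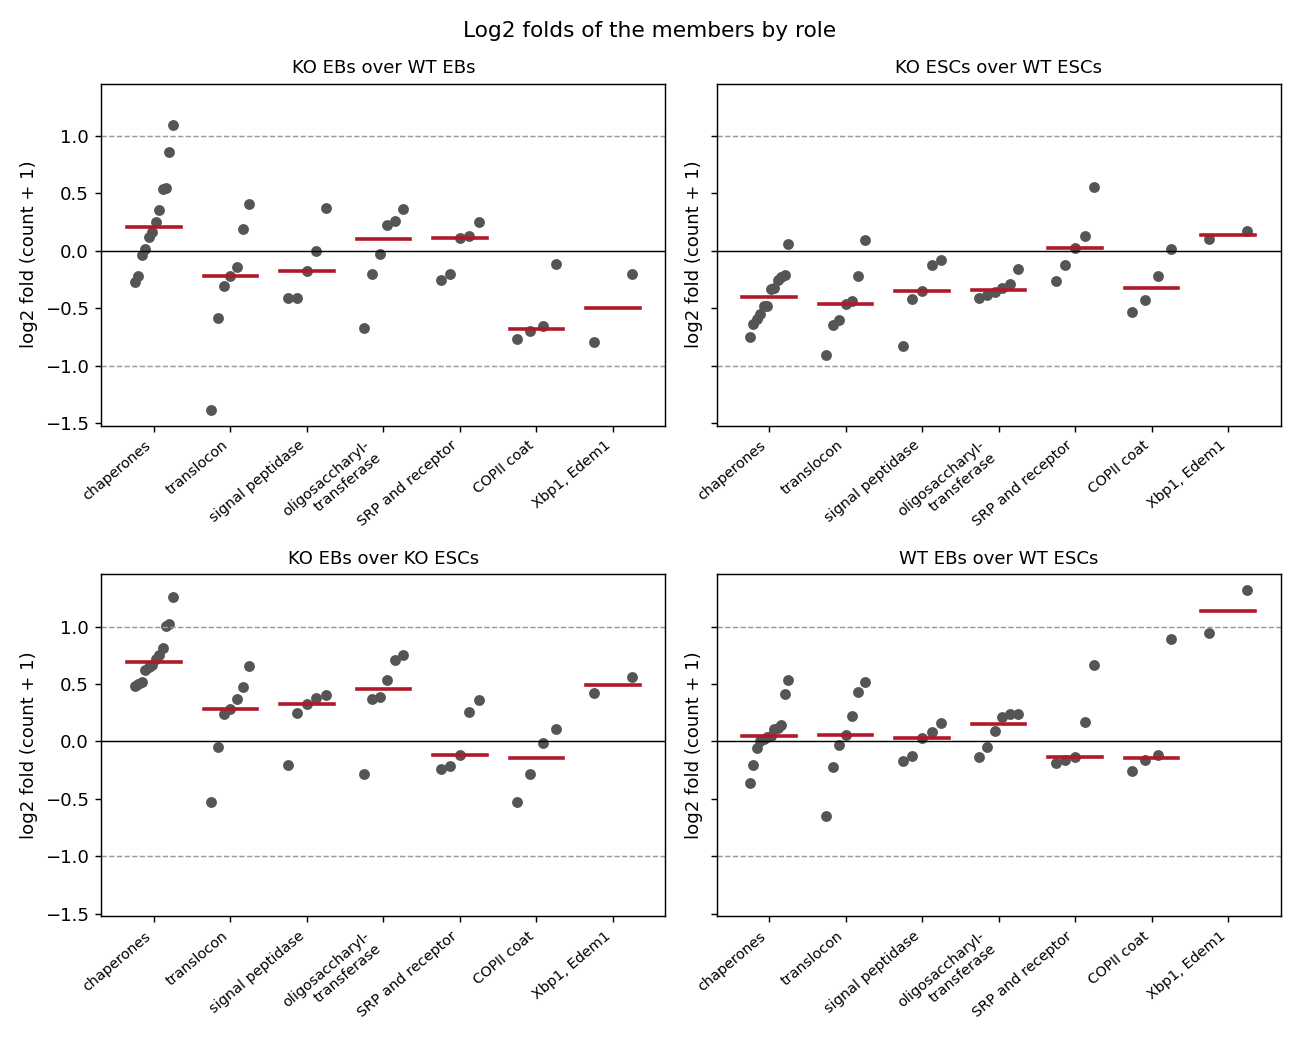
Log2 folds (count + 1) of the 41 genes by role in the 4 comparisons; each point is a gene, ordered by fold within its role, the bar is the median of the role and the dashed lines mark 2-fold. Chaperone medians are 0.21 between KO EBs and WT EBs and −0.41 between KO ESCs and WT ESCs, and the coat genes lie below 0 in KO EBs against WT EBs, Sec13 turning to 0.00 under scaling to the same total.

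Promoters of ER chaperone genes are known for the ER stress response element (ERSE), CCAAT and CCACG with 9 bases of any kind between them, at which the factor NF-Y meets ATF6 or XBP1. RefSeq promoter windows of GRCm38.p6, 250 bases before to 50 after the start, were at hand for 40 of the 49 genes, and both strands were searched. The element was in 7 of 13 chaperone genes with a window (53.8%), in 0 of the 27 other members with one, and in 37 of 27025 genes with a window (0.137%). That of Hspa5 is shown, since its own footprints could not be counted; the stretch is the 250 bases before the start, GRCm38.p6 chr2:34771840-34772089, plus strand, with the ERSE in capitals.
Hspa5: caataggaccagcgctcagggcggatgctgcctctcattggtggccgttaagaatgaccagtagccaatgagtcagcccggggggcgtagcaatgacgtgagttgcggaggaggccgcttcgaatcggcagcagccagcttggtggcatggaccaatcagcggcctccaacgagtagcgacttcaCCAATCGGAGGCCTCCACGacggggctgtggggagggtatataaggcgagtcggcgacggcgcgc

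The element as found in the other 6 genes is printed in its own direction, 5′ to 3′, with its place and strand in GRCm38.p6, to show the spacers between the fixed ends, with CCAAT and CCACG in capitals and the 9 bases between them in lower case. Hsp90b1 held 2 copies, on opposite strands.
Hsp90b1, chr10:86705638-86705656, minus strand: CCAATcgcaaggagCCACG
Hsp90b1, chr10:86705533-86705551, plus strand: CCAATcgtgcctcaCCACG
Calr, chr8:84847075-84847093, plus strand: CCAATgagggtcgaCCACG
Canx, chr11:50325800-50325818, minus strand: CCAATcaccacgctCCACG
Creld2, chr15:88819520-88819538, minus strand: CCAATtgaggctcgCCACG
Dnajc3, chr14:118937827-118937845, plus strand: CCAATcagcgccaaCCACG
Pdia6, chr12:17266491-17266509, plus strand: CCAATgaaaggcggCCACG

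The related element ERSE-II was in Dnajb11 and in 12 of 27025 genes. The element TGACGTGG, bound by XBP1 and ATF6, was in the coat genes Sec23a and Sec24d, in 0 of the 13 chaperone genes and in 193 of 27025 genes (0.714%). CCAAT alone, which lies inside the ERSE, was in 13 of 13 chaperone and 6 of 6 oligosaccharyltransferase genes with a window and in 41.1% of all genes. The 5 measured chaperone genes with an ERSE had a median log2 fold of 0.12 in KO EBs against WT EBs and −0.55 in KO ESCs against WT ESCs. The 5 measured chaperone genes with a window but no ERSE had 0.17 in KO EBs against WT EBs and −0.25 in KO ESCs against WT ESCs. Sdf2l1 and Pdia4, the highest in KO EBs against WT EBs, were among those with a window but no ERSE. No match says only that the letters are not there in these 300 bases, and a match was not tested for binding. This split was made after the values were seen.

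The COPII coat went the other way from the chaperones in EBs. All 4 measured genes were lower in KO than WT EBs, as were 5175 of 9670 genes tested, with a median log2 fold of −0.68. Of the 4, 3 were lower by at least 1.5-fold, as were 25.1% of all genes. Sec13 turned to 0.00 under scaling to the same total. Of gene reads the 4 genes held 0.0892% (0.0863–0.0921%) in KO EBs, 0.119% (0.116–0.122%) in WT EBs, 0.104% (0.102–0.106%) in KO ESCs and 0.126% (0.123–0.128%) in WT ESCs. Their summed reads were 1.45-fold lower (1.39–1.51) in KO than WT EBs and 1.32-fold lower (1.28–1.35) in KO than WT ESCs. Sec24d, a cargo-binding subunit, had 464 in KO EBs, 793 in WT EBs, 431 in KO ESCs and 427 in WT ESCs. It was high in WT EBs alone, 1.71-fold lower (1.48–1.97) in KO than WT EBs and 1.01-fold higher (0.904–1.13) in KO than WT ESCs. Sec23a, its partner in the inner coat, had 1082 in KO EBs, 1756 in WT EBs, 1559.8 in KO ESCs and 2098 in WT ESCs, lowest in KO EBs, 1.62-fold lower (1.48–1.78) than in WT EBs. Sec31a, of the outer coat, had 2218 in KO EBs, 3499 in WT EBs, 2698 in KO ESCs and 3912 in WT ESCs. It was 1.58-fold lower (1.48–1.69) in KO than WT EBs and 1.45-fold lower (1.39–1.51) in KO than WT ESCs. Sec13, which pairs with Sec31a and is also a nuclear pore subunit, was nearly level, with 1661 in KO EBs, 1799 in WT EBs, 1677 in KO ESCs and 1953 in WT ESCs. It was 1.08-fold lower (0.996–1.18) in KO than WT EBs. By density Sec13 was the highest of the coat, 309 in KO EBs, 309 in WT EBs, 311 in KO ESCs and 332 in WT ESCs.

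Xbp1, the transcription factor of the unfolded protein response, is read from an mRNA that the sensor IRE1 cuts to remove a short stretch and shift the reading frame. The table has an entry for each form, and all of its reads, 37 in KO EBs, 62 in WT EBs, 77 in KO ESCs and 49 in WT ESCs, were on the entry of the spliced form. The entries share most of their sequence, where reads are ambiguous, and only a 338-base stretch at GRCm38.p6 chr11:5524905-5525242 belongs to the spliced entry alone. The unspliced entry has no 28-base window of its own, so its 0 is no level of that form. The coding sequence around the removed stretch is shown because its loss defines that entry (GRCm38.p6 chr11:5524258-5524323, plus strand, 5′ to 3′, with the 26 removed bases in capitals).
Xbp1: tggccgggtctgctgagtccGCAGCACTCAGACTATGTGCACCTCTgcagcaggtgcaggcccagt

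The 338-base stretch where the reads lie is downstream of the removed bases, after the stop codon of the unspliced entry. Xbp1 had 55.2 in KO EBs, 96.6 in WT EBs, 41.1 in KO ESCs and 38.1 in WT ESCs. WT EBs stood highest, 2.53-fold higher (1.71–3.76) than WT ESCs, and KO EBs were 1.75-fold lower (1.15–2.7) than WT EBs; KO EBs were 1.34-fold higher (0.883–2.01) than KO ESCs and KO ESCs 1.08-fold higher (0.743–1.57) than WT ESCs, both intervals including 1. Edem1, an XBP1 target that sends misfolded glycoproteins to degradation, had 455 in KO EBs, 525 in WT EBs, 308 in KO ESCs and 272 in WT ESCs. It was 1.93-fold higher (1.66–2.25) in WT EBs than WT ESCs and 1.48-fold higher (1.28–1.7) in KO EBs than KO ESCs, with little between the genotypes, 1.15-fold lower (0.985–1.35) in KO than WT EBs and 1.13-fold higher (0.988–1.29) in KO than WT ESCs. Its density was 38.7 in KO EBs, 41.2 in WT EBs, 26.1 in KO ESCs and 21.1 in WT ESCs. In both genes WT EBs had the highest count, as in the chaperones Hsp90b1, Pdia3 and Dnajc3; in the other 9 measured chaperones KO EBs did.

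Between EBs and ESCs, the median fold of the members was above that of all genes in KO cells and near it in WT cells. In KO EBs against KO ESCs 31 of 41 were higher, as were 4347 of 9670 genes tested. The median log2 fold was 0.39 against −0.08 over all genes. Past 2-fold were 3 on the high side and 0 on the low side, where over all genes 9.31% were on the high side and 6.65% on the low side. In WT EBs against WT ESCs 25 of 41 were higher, as were 4659 of 9670 genes tested. Of those members 5 (Calr, Pdia3, P4hb, Creld2 and Spcs2) turned below 0 under TMM scaling. The median of the members was 0.04 against −0.02 over all genes. Past 2-fold were 1 (Xbp1) on the high side and 0 on the low side, where over all genes 11% were on the high side and 8.25% on the low side. At 1.5-fold, 12 members were higher and 0 lower in KO EBs than KO ESCs, where 18.5% of all genes were higher and 19% lower, and 4 were higher and 1 lower in WT EBs than WT ESCs, where 18.2% were higher and 15.6% lower. Of the 12 in KO, 9 were chaperones. All 12 measured chaperones were higher in KO EBs than KO ESCs, with a median of 0.69; in WT EBs against WT ESCs the median was 0.04, and −0.00 under another scaling (TMM).

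The 3 members past 2-fold in KO were chaperones. Sdf2l1 was 2.39-fold higher (2.2–2.59) in KO EBs than KO ESCs and 1.04-fold lower (0.933–1.16) in WT EBs than WT ESCs. Manf was 2.03-fold higher (1.91–2.17) in KO EBs than KO ESCs and 1.45-fold higher (1.34–1.57) in WT EBs than WT ESCs. Pdia6 was 2.01-fold higher (1.93–2.09) in KO EBs than KO ESCs and 1.08-fold higher (1.04–1.13) in WT EBs than WT ESCs. Past 1.5-fold in WT EBs against WT ESCs, beside Xbp1 and Edem1, Srprb was 1.59-fold higher (1.42–1.77), Sec24d was 1.86-fold higher (1.64–2.1) and Sec61b was 1.57-fold lower (1.26–1.97). Each stage comparison uses a library that a genotype comparison also uses, so the high EB against ESC folds in KO and the low KO against WT folds in ESCs both contain the KO ESC library.

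The other genes of the same pathways, which are not among the 49, were taken from 3 lists drawn up with earlier results of these data known. Of 31 other translocation and glycosylation genes 23 passed the filter, with median log2 folds of 0.04 in KO EBs against WT EBs and −0.05 in KO ESCs against WT ESCs. Between KO EBs and WT EBs 2 of the 23 were at least 2-fold higher and 0 lower, where over all genes 15.2% were higher and 12.2% lower. Between KO ESCs and WT ESCs 0 were past 2-fold, where 10.6% of all genes were higher and 4.42% lower. The shares of the list were under that background. Alg9, a mannosyltransferase of the sugar precursor, had 669 in KO EBs, 284 in WT EBs, 599 in KO ESCs and 372 in WT ESCs. It was 2.36-fold higher (1.98–2.82) in KO than WT EBs. Emc10, of the ER membrane insertase EMC, had 2266 in KO EBs, 1018 in WT EBs, 1210.4 in KO ESCs and 1178 in WT ESCs. It was 2.23-fold higher (2.03–2.44) in KO than WT EBs. Tram1, a neighbour of the Sec61 channel, was on the low side in KO at both stages, with 824 in KO EBs, 1501 in WT EBs, 859 in KO ESCs and 1261 in WT ESCs. It was 1.82-fold lower (1.64–2.03) in KO than WT EBs and 1.47-fold lower (1.37–1.57) in KO than WT ESCs.

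Of 43 other folding and quality control genes 35 passed, with medians of 0.12 in KO EBs against WT EBs and −0.12 in KO ESCs against WT ESCs. Between KO EBs and WT EBs 2 of the 35 were at least 2-fold higher and 2 lower, under the 15.2% and 12.2% of all genes on those sides. Between KO ESCs and WT ESCs 1 was higher and 1 lower, under the 10.6% and 4.42% of all genes. Derl3, a channel component of ER-associated degradation, had 410.5 in KO EBs, 149.6 in WT EBs, 60.3 in KO ESCs and 57.6 in WT ESCs. KO EBs stood far above the rest, 2.74-fold higher (2.17–3.5) than WT EBs and 6.81-fold higher (5.45–8.55) than KO ESCs. Wfs1, an ER membrane protein mutated in Wolfram syndrome, had 1499 in KO EBs, 603 in WT EBs, 1832 in KO ESCs and 746 in WT ESCs, higher in both KO libraries than in both WT libraries, 2.48-fold higher (2.21–2.8) in EBs and 2.46-fold higher (2.29–2.64) in ESCs. Uggt2, a relative of the folding sensor Uggt1, showed the opposite order, with 71.6 in KO EBs, 167 in WT EBs, 54.9 in KO ESCs and 125 in WT ESCs. It was 2.33-fold lower (1.64–3.34) in KO than WT EBs and 2.28-fold lower (1.77–2.95) in KO than WT ESCs. Erlec1, an ER lectin, had 246 in KO EBs, 513 in WT EBs, 263 in KO ESCs and 411 in WT ESCs. It was 2.08-fold lower (1.72–2.53) in KO than WT EBs.

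Of 34 other coat and transport genes 27 passed. In KO against WT, 19 of 27 were lower in EBs, as were 5175 of 9670 genes tested. In ESCs 19 of 27 were lower in KO, as were 4868 of 9670. The medians of the 27 were −0.23 in KO EBs against WT EBs and −0.25 in KO ESCs against WT ESCs. Between KO EBs and WT EBs 2 of the 27 were at least 2-fold lower and 0 higher, under the 12.2% of all genes that were lower and the 15.2% that were higher. Creb3l2, a transcription factor that turns on COPII genes in cells that secrete collagen, had 197 in KO EBs, 552 in WT EBs, 189.9 in KO ESCs and 276 in WT ESCs. It was 2.8-fold lower (2.29–3.45) in KO than WT EBs. Sec24a, a relative of Sec24d, had 643 in KO EBs, 1479 in WT EBs, 871 in KO ESCs and 884 in WT ESCs. It was 2.3-fold lower (2.05–2.58) in KO than WT EBs. Like Sec24d, both had their highest count in WT EBs, the library in which the endoderm markers stood highest. The sum of matrix markers, whose collagens are cargo of these vesicles, was highest in KO EBs, though Sparc was highest in WT EBs. The part of these cells in the coat genes was not tested.

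A count model over the 4 libraries, with terms for genotype and for culture and no other replicate, called no member. It has no term for a genotype effect that differs between cultures, so such a difference counts as noise. Genes that went opposite ways at the 2 stages, as most chaperones did, could hardly be called for genotype. The lack of a call is therefore not evidence of no change. By edgeR's quasi-likelihood test the term for genotype called 0% of genes tested and the term for culture 0.259%; by DESeq2 they called 3.33% and 3.95%. The smallest adjusted p of a member was 0.165 for genotype and 0.302 for culture by edgeR, and 0.0777 and 0.267 by DESeq2 (Benjamini-Hochberg over all genes tested). An unadjusted p under 0.05 by edgeR was found for genotype in 1556 of 9670 genes and in 1 of 41 members (Sec63). For culture it was found in 1140 of 9670 genes and in 2 of 41 members (Manf and Edem1). Both member shares are under those of all genes. Sec63 was lower in KO than in WT at 2 of 2 stages, and Manf and Edem1 were higher in EBs than in ESCs in 2 of 2 genotypes. These directions come from the same 4 libraries as the model. Other members, Hsp90b1 and Ssr1 among them, were also lower in KO at both stages.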

How the data were processed

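Ribosome footprints of 4 libraries, 1 per group, were deposited as 1 table with a column per library; each column was matched to its library by the genotype and culture in its name, and 0 columns were left out. The submitters' processing notes name TopHat2 2.0.10 with Bowtie, HTSeq 0.6.0, DESeq and CASAVA 1.8.2, on build mm10. Settings, strand and annotation version were not known from the sources used. What was deposited is a signal per RefSeq coding sequence entry, made by the authors from read counts with 1 size factor per library: 100% of values were whole multiples of 1 read within 0.01, so reads were recovered. Of 27442 entries 27083 were matched to symbols in the GRCm38.p6 reference and summed to 20716 genes, and 359 were kept as they stood. Of all reads there 27.9% to 33.4% lay on genes, 48.4% to 55.7% had no unique place and 8.62% to 10.5% were ambiguous between entries; the 5 summary entries stayed out of all sums.

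Log2 folds used a pseudocount of 1 and genes with a mean of at least 25. Genes were called at 2-fold. Intervals of ratios are 95% conditional exact binomial (Clopper-Pearson), and those of shares are exact binomial. Reads without molecular identifiers are not independent molecules, so both cover counting error only. A 28-base window counted as countable when no other entry of the table and no other place in the genome held it; densities use these windows in place of the whole coding length and were given at 50% countable windows or more. The design had foreseen no count model; edgeR 4.0.16 (quasi-likelihood) and DESeq2 1.42.0 were fitted to the recovered reads with genotype and culture as terms, each called at an adjusted p under 0.05, after the edgeR step was tested on simulated data. R 4.3.3, Python 3.11.15, pandas 2.3.3, numpy 2.4.6, SciPy 1.17.1 and matplotlib 3.10.9 were used.

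The members and the lists of other pathway genes and markers were chosen with earlier results of these data known. Members are given in full where they were at least 2-fold apart in a comparison, had the highest or lowest fold of their role between genotypes at a stage, or had the highest density of their role; of other lists, the 2 highest and 2 lowest of a comparison could be named.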

Additional observations from a re-analysis of the deposited data

How the results depend on the processing

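The 4 libraries have no replicates, so depth limits only the counting error, and Xbp1, with 37 to 77 reads per library, has the widest intervals of the genes that passed. The counts of members past 2-fold and the medians of both role groups were recomputed with a pseudocount of 10, without the filter on low values, with a mean of at least 100, with all libraries brought to the same total, with TMM factors, with the entry with the most reads per gene, and with the members under 10% copied. Of 129 such values 121 held and 8 moved. Without the filter, Sec61g made 1 member at least 2-fold lower in KO than WT ESCs. With a mean of at least 100, Xbp1 dropped out and 0 members were 2-fold higher in WT EBs than WT ESCs. The other 6 came from calling at 1.5-fold. Then 2 members were higher and 7 lower in KO than WT EBs, 7 were lower in KO than WT ESCs, 12 were higher in KO EBs than KO ESCs, and 4 were higher and 1 lower in WT EBs than WT ESCs. The chaperone and coat median in WT EBs against WT ESCs turned to −0.01 with TMM. SRP medians changed sign in all 4 comparisons when only members under 10% copied were kept, from small values to small values. Of 1124 values of single members 1071 held, 53 moved and 13 changed sign, all 13 under a scaling. No paired analysis was possible because each group has 1 library, so no replicate numbers pair the groups; the count model compares the genotypes within culture.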
